A study of Mus musculus with 28 samples.

Results

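Suz12 and H3K27me3 were compared in control mesodermal cultures, that is, a subunit of the enzyme complex against the histone mark this complex writes. The comparison used the 2 Suz12 and 3 H3K27me3 ChIP-seq libraries of control cultures, 5 of the 28 samples of the series, chosen by antibody and treatment label. A Suz12 region was counted when regions of both libraries overlapped, which gave 1988 merged regions. An H3K27me3 region was counted when at least 2 of 3 libraries overlapped, which gave 6473 merged regions. The study asked how the chromatin remodeller Brg1 acts during mesoderm differentiation. All 5 cultures came from a single mouse embryonic stem cell line, Brg1f/f; Actin-CreER, in which both Brg1 alleles are floxed and a tamoxifen-activated Cre is driven by an Actin promoter. Embryoid bodies grew in serum-free medium for 2 days, then for 40 h with VEGF, Activin A and BMP4, and were collected on day 4. The controls received the solvent tetrahydrofuran (THF) on day 2 in place of 4-hydroxytamoxifen (4-OHT), so that the floxed alleles were left intact, and the labels give their Brg1 level as normal. The Suz12 antibody was from Bethyl and the H3K27me3 antibody from Millipore.

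Polycomb repressive complex 2 (PRC2) trimethylates lysine 27 of histone H3. Its catalytic subunit is Ezh2 or Ezh1, and Suz12 is a core subunit without which the complex is not stable. H3K27me3 is a mark of silenced genes. In embryonic cells PRC2 is known to gather at unmethylated CpG islands near the start sites of developmental genes, while the mark can spread outwards from such sites through Eed, the subunit that reads it. H3K27ac, acetylation of the same lysine, marks active promoters and enhancers, and a single histone tail cannot carry both.

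Sequence from the centre of 3 regions shows what the lists contain. These are the widest Suz12 region inside the mark, the widest Suz12 region away from the mark, and the widest H3K27me3 region away from Suz12. Away means over 5 kb from the regions counted above, while a single library could still list the other. H3K27me3 replicate 2 covered 700 bp of the Cldn7 region, and Suz12 replicate 1 covered 1275 bp of the 1200009I06Rik region. Each run is 300 bp of the mm9 genome, plus strand, 5′ to 3′, with CpG dinucleotides in capitals. The HoxD run (chr2:74525413-74525712) lies in a Suz12 region of 40875 bp and has 11 CpGs. The Cldn7 run (chr11:69779088-69779387) lies in a Suz12 region of 725 bp and has 18 CpGs. The run from the H3K27me3 region at 1200009I06Rik (chr12:112660126-112660425), a region of 8150 bp, has 2 CpGs at a GC content of 59.7%, against 57.3% in the HoxD run and 50% in the Cldn7 run.
HoxD, Suz12 inside H3K27me3: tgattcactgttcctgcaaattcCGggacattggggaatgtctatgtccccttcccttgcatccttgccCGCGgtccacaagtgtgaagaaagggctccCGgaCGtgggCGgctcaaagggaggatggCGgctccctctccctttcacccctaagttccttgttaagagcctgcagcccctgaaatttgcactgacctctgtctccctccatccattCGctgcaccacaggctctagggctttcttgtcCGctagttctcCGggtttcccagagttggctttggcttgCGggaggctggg
Cldn7, Suz12 away from H3K27me3: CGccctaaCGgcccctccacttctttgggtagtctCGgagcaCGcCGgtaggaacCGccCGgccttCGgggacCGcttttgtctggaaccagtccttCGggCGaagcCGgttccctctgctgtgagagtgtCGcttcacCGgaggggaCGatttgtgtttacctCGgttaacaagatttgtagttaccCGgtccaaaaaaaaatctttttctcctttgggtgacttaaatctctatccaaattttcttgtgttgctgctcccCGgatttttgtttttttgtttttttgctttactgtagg
1200009I06Rik, H3K27me3 away from Suz12: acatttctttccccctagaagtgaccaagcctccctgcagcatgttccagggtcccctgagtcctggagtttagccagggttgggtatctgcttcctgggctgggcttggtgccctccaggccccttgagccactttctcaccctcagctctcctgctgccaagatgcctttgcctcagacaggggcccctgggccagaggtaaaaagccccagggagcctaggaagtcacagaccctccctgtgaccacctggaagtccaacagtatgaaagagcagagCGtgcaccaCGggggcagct

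For each library the authors deposited a list of regions enriched over input, without a score or read count, so read depth is unknown and the number and length of regions are the only measures of each library. Suz12 replicate 1 listed 2951 regions covering 3.68 Mb and replicate 2 listed 2913 regions covering 4.07 Mb. H3K27me3 replicates 1, 2 and 3 listed 16959, 8798 and 8977 regions covering 8.38, 11.0 and 10.0 Mb. One library stood apart. H3K27me3 replicate 1 had about as many regions as the other two together, its median width was 250 bp against 425 bp and 350 bp, and its widest region was 9300 bp against 94725 bp and 66425 bp. The bases common to a pair of lists made up 76.2% of all bases in either for H3K27me3 replicates 2 and 3, but 39.9% and 39.2% for replicate 1 against these. For the 2 Suz12 lists the share was 77.9%. Of 17529 merged H3K27me3 regions, 7646 were listed by replicate 1 alone, with a median width of 150 bp, and 4270 by all 3 libraries. The main overlap shares, the count of Suz12 regions outside the mark and the count of marked genes without Suz12 are therefore given with and without it. Other results on the merged H3K27me3 regions, including the gene lists, are given with it only.

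Nearly all Suz12 regions lay on the mark. Of the 1988 Suz12 regions, 1355 (68.2%) were wholly inside an H3K27me3 region and 581 (29.2%) crossed its edge, so that 1936 or 97.4% overlapped the mark. The exact 95% binomial interval was 96.6 to 98.0% and covers counting error only. Those that crossed an edge still had a median of 86.5% of their length on the mark. In bases, 95.8% of the 4.13 Mb of Suz12 lay on the mark, whereas 31.3% of the 12.6 Mb of H3K27me3 carried Suz12. Without H3K27me3 replicate 1 the share of overlapping Suz12 regions was 97.3% and the share wholly inside 67.9%.

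In single pairs of libraries the shares depended on the H3K27me3 replicate. Suz12 replicate 1 overlapped H3K27me3 replicates 1, 2 and 3 with 48.6%, 92.4% and 87.9% of its regions. Suz12 replicate 2 did so with 50.1%, 91.9% and 87.7%. Against H3K27me3 replicate 1 about as many Suz12 regions were beside the mark, that is, within 5 kb without touching it, as were on it: 49.8% for Suz12 replicate 1 and 48.1% for Suz12 replicate 2. Regions wholly inside made up 13.2% and 12.5% against this replicate, 72.9% and 69.1% against replicate 2, and 60.0% and 55.5% against replicate 3. Suz12 regions of 1 library alone were narrow, with a median of 125 bp against 1200 bp for those of both, and 1080 of these 1414 regions (76.4%) overlapped the mark.

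**Figure D1:**
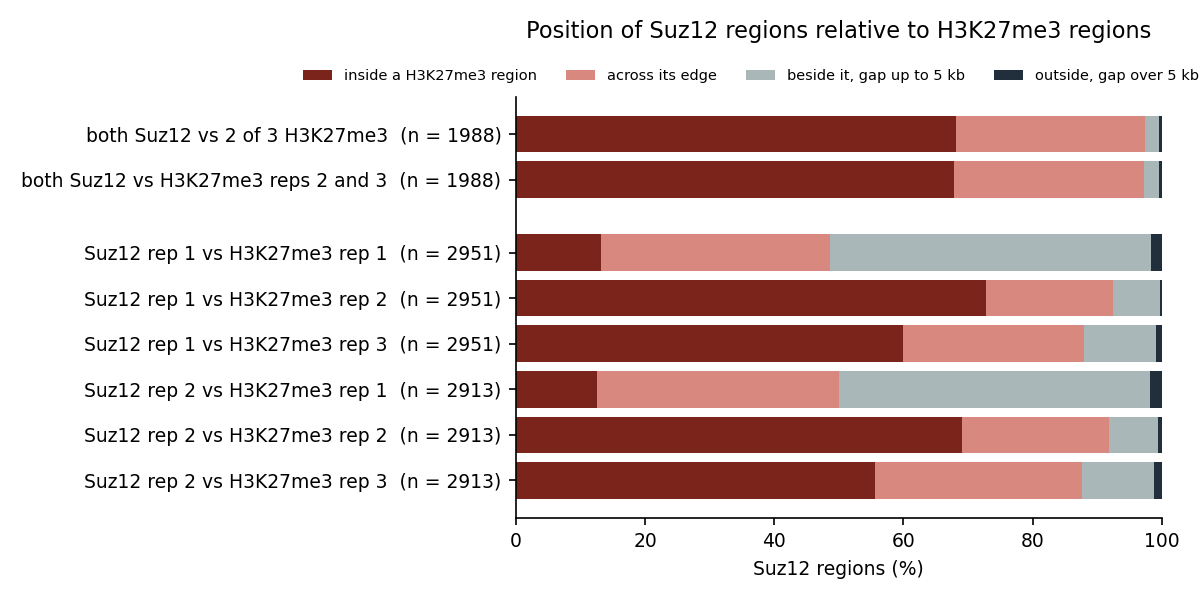
Share of Suz12 regions (%, horizontal axis) inside, across the edge of, beside or outside H3K27me3 regions, for the merged sets (top 2 bars) and for each pair of replicates (lower 6 bars). The bars against H3K27me3 replicate 1 differ from all others, with 13.2% and 12.5% of Suz12 regions inside the mark.

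Suz12 away from the mark was rare. Beside the mark were 45 Suz12 regions (2.26%), with a median width of 300 bp and a median gap of 250 bp to the nearest H3K27me3 region. Outside, over 5 kb from it, were 7 regions (0.352%), between 150 and 725 bp wide. Of these, 6 overlapped a region of H3K27me3 replicate 2 that the set did not keep, and all 7 lay within 5 kb of a region of some H3K27me3 library, since 0 were left when a region of any library was accepted. The count of 7 depended on single libraries: it was 10 without H3K27me3 replicate 1, 80 without replicate 2, 66 without replicate 3, 28 without Suz12 replicate 1 and 17 without Suz12 replicate 2. By name, the regions lay at Cldn7, a tight junction protein, at Ahnak, a large scaffold protein, at Coro2b, an actin-binding coronin, at Ptp4a3, a tyrosine phosphatase, at Ampd3, an AMP deaminase, at Rab11fip4, a Rab11 effector, and 5752 bp from the tetraspanin Tspan4. At the Cldn7 region Suz12 covered 725 bp and 200 bp in replicates 1 and 2, H3K27me3 covered 0, 700 and 0 bp in replicates 1, 2 and 3, and H3K27ac regions present in both control libraries covered the whole 725 bp. The Ahnak region of 500 bp was likewise covered by H3K27ac over its full length. Suz12 regions outside the mark had a median CpG density of 13.7 per 100 bp and those beside it 12.0, compared with 7.33 in those inside. These classes also differed in width, with medians of 375 and 300 bp against 1175 bp. H3K27me3 replicate 1 listed almost no CpG-rich Suz12 centres, as given below, so there the set needed replicates 2 and 3 both. The part of either in the CpG difference was not tested.

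Where an H3K27me3 region held a single Suz12 region wholly inside it (856 regions), Suz12 filled a median of 32.5% of its length (25th and 75th percentiles 22.1 and 45.7%). The mark reached a median of 1150 bp beyond Suz12 on the left and 1188 bp on the right in genome order. In 432 of these regions Suz12 covered TSSs of a single strand, and the mark reached 1238 bp upstream and 1350 bp downstream (medians), further downstream in 221 (51.2%).

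Around the centres of the 1988 Suz12 regions H3K27me3 replicates 2 and 3 were highest at the centre itself, where 91.6% and 86.1% of bases were inside a listed region, and fell to 17.0% and 16.9% at 10 kb upstream in genome order. H3K27me3 replicate 1 behaved otherwise. It covered 19.4% of bases at the centre, but 48.1% at 1250 bp on the left and 46.1% at 1250 bp on the right. H3K27ac covered 1.73% and 1.07% at the centre in its 2 control libraries. CpG density was highest at the same place, with 7.92 CpGs per 100 bp at the centre against 1.37 at 10 kb.

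**Figure D2:**
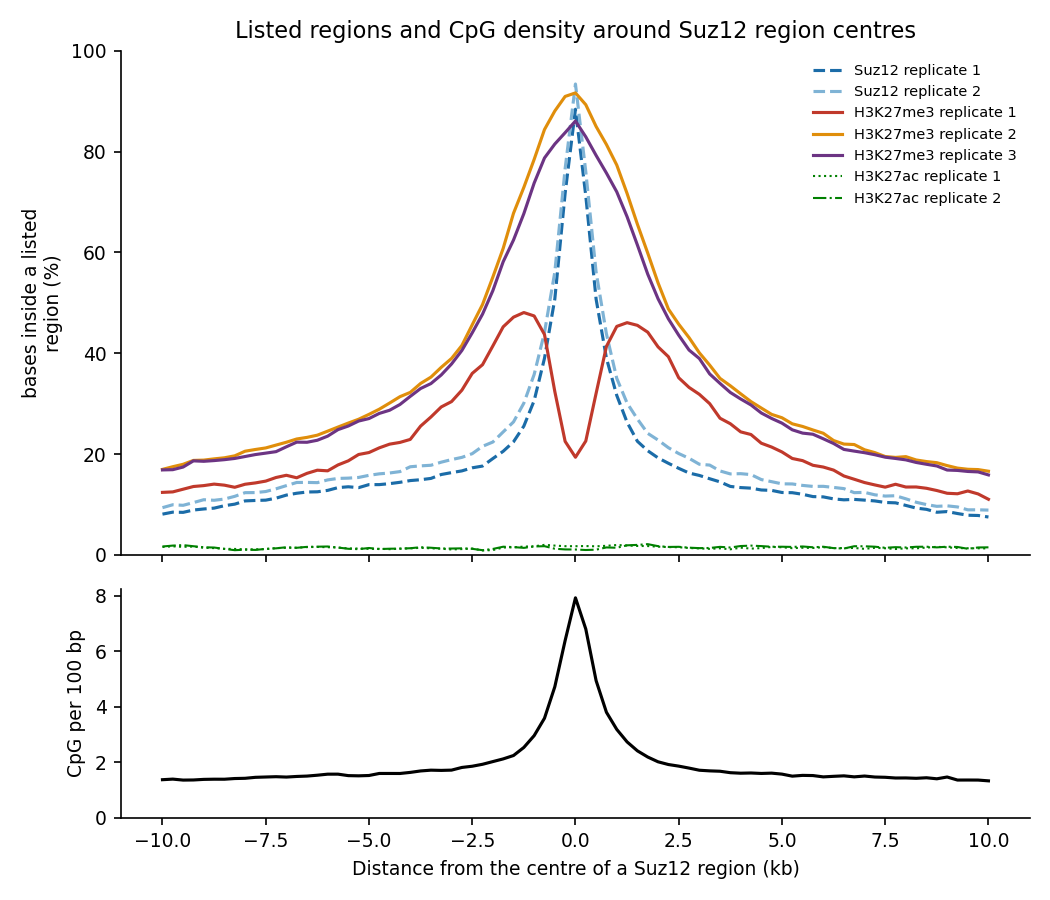
Percentage of bases inside a listed region in 250-bp windows (upper panel, 2 Suz12, 3 H3K27me3 and 2 H3K27ac control libraries) and mean CpGs per 100 bp (lower panel) against distance in kb from the centre of 1988 Suz12 regions. H3K27me3 replicates 2 and 3 peak at the centre with 91.6% and 86.1%, while replicate 1 dips to 19.4% between shoulders of 48.1% and 46.1%.

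The dip in replicate 1 followed CpG density. Suz12 regions were split into 4 groups of 481 to 511 by the CpG density of their central 300 bp. The centre lay in a region of H3K27me3 replicate 1 in 73.2% of the group with fewest CpGs (up to 3.67 per 100 bp) and in 9.59%, 0.196% and 0% of the groups above it. In replicate 2 these shares were 99.4, 95.7, 91.2 and 83.8%, and in replicate 3 they were 97.7, 90.8, 84.7 and 76.9%. At 955 Suz12 regions (48.0%) replicate 1 listed the mark on both sides between 500 and 1500 bp from the centre, yet not at the centre. This was so at 109 regions (5.48%) in replicate 2 and at 151 (7.60%) in replicate 3.

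The same was seen in windows counted as without Suz12. The bases in both H3K27me3 replicates 2 and 3 were divided into 27363 windows of 300 bp. A window counted as present in replicate 1 when at least 50% of it was listed there. It counted as with Suz12 when Suz12 regions of both libraries covered at least 50% of it. Windows without Suz12 could thus hold a shorter stretch of these, or a region of 1 Suz12 library. Among windows with fewer than 1 CpG per 100 bp, 93.1% of 1075 with Suz12 and 79.2% of 4837 without it were present. Among those with 8 or more, 2 of 2404 with Suz12 (0.0832%) and 0 of 341 without it were present, and 0 of 341 allows a share of up to 0.880% by counting error. Between 4 and 6 CpGs per 100 bp the shares were 21.1% and 12.0%. Windows of one region are not independent, and the cause of the difference between libraries was not tested.

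**Figure D3:**
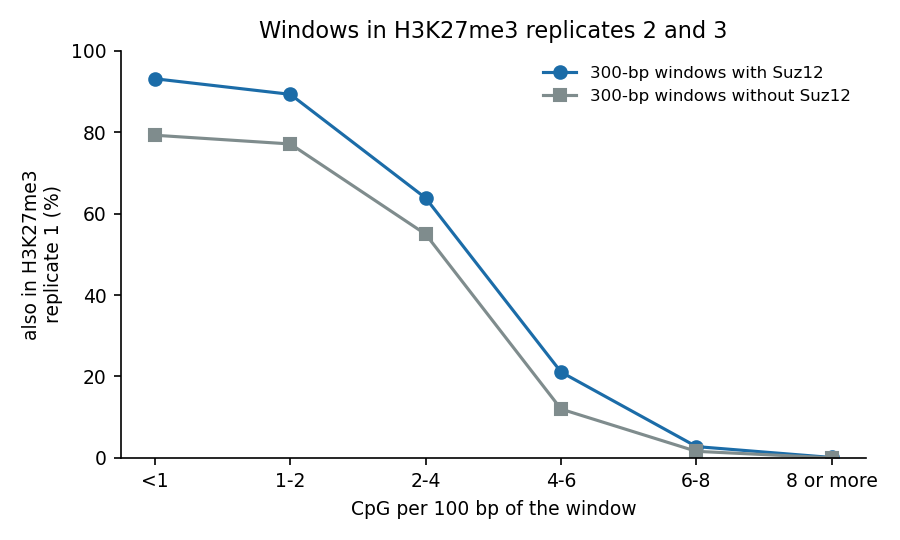
Share (%) of 300-bp windows listed in both H3K27me3 replicates 2 and 3 that replicate 1 lists too, by CpGs per 100 bp of the window, for windows with and without Suz12. Both lines fall from 93.1% and 79.2% at under 1 CpG to 0.0832% and 0% at 8 or more.

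Seen from the mark, 1704 of 6473 H3K27me3 regions (26.3%) carried Suz12, 1337 (20.7%) had it within 5 kb, and 3432 (53.0%) had none within 5 kb. Without H3K27me3 replicate 1 the first share was 32.6%. Regions with Suz12 were wide and CpG-rich: their median width was 3300 bp, against 675 bp for those beside Suz12 and 800 bp for those away from it, and their median CpG density 3.33 per 100 bp against 1.00 and 1.33. A wide region offers more bases for an overlap, so width and overlap are not independent. TSSs of protein-coding genes lay within 5 kb of 84.8%, 69.2% and 72.4% of the 3 classes. H3K27ac overlapped 4.17%, 1.94% and 2.21% of them. The H3K27me3 regions that all 3 libraries listed carried Suz12 in 1562 of 4270 cases (36.6%), and those of 1 library alone in 75 of 11056 cases (0.678%).

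The split by width held in each of the 6 pairs of libraries. In H3K27me3 replicate 2 the regions overlapping Suz12 replicate 1 had a median width of 2625 bp and those over 5 kb away 225 bp. In replicate 3 these widths were 2375 and 200 bp, and in replicate 1 they were 825 and 200 bp. With Suz12 replicate 2 the widths were 2600, 2325 and 825 bp with Suz12 and 225, 200 and 200 bp away from it.

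By width class the share of H3K27me3 regions with Suz12 was 1.72% under 500 bp, 5.01% from 500 to 1000 bp, 17.2% from 1000 to 2000 bp, 64.1% from 2000 to 5000 bp and 95.6% from 5000 to 10000 bp. All 148 regions of 10 kb or more carried Suz12, also in each Suz12 library alone. The widest region without a Suz12 region of both libraries was the 8150 bp at 1200009I06Rik. In the list of H3K27me3 replicate 1, which had no region of 10 kb, the share in the class of 5000 to 10000 bp was 91.9%, against 96.5% and 97.3% in replicates 2 and 3.

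**Figure D4:**
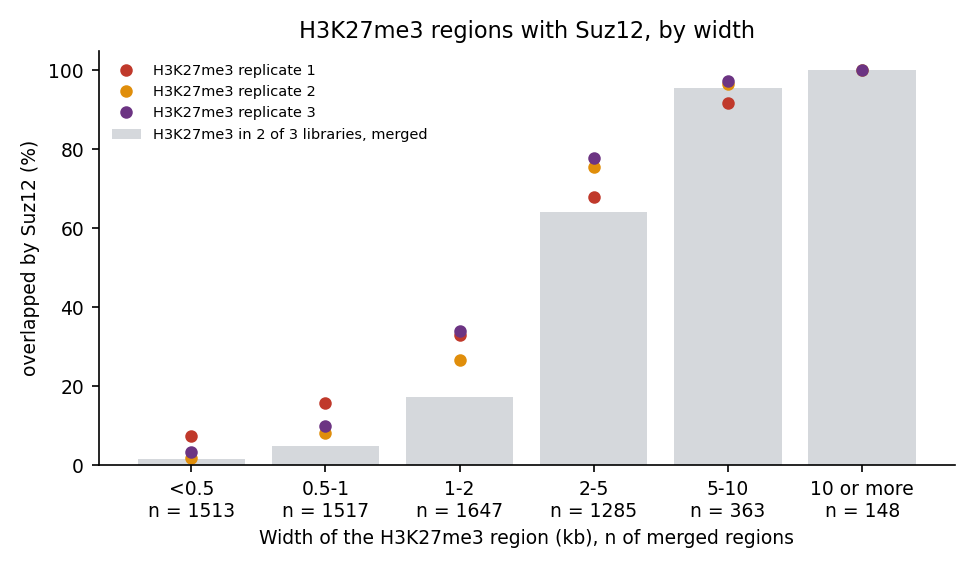
Share (%) of H3K27me3 regions overlapped by a Suz12 region present in both libraries, by width of the H3K27me3 region in kb; grey bars are the merged regions, points the 3 single libraries. The share rises from 1.72% under 500 bp to 100% of 148 regions of 10 kb or more.

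The widest marked regions were the Hox clusters, whose homeodomain proteins set positional identity along the body axis. HoxA (chr6:52110476-52205325) was marked over 94850 bp and held 11 Suz12 regions. Suz12 covered 75650 and 82325 bp of it in its 2 libraries, and H3K27me3 63250, 94725 and 94525 bp in replicates 1, 2 and 3. HoxC (chr15:102751576-102820675) was marked over 69100 bp, with 56625 and 60050 bp of Suz12 and 50550, 69100 and 67750 bp of H3K27me3. In each of these clusters replicate 1 was the lowest H3K27me3 library. HoxD with Evx2 (chr2:74486051-74549450) was marked over 63400 bp, with 48650 and 53575 bp of Suz12. HoxB from Hoxb3 to Hoxb7 (chr11:96150751-96202475) was marked over 51725 bp, with 37300 and 42775 bp of Suz12. The fifth in width was Hand2 (chr8:59787351-59832350), a bHLH factor of heart and limb, marked over 45000 bp with 21900 and 27925 bp of Suz12, and it held 2250 bp of H3K27ac, against at most 375 bp in the 4 Hox regions. The widest single Suz12 region, 40875 bp from Hoxd13 to Hoxd8, was inside the HoxD region.

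The widest marked regions over 5 kb from Suz12 were at most 8150 bp wide. After 1200009I06Rik they were 7875 bp near Slc25a4, the mitochondrial ADP/ATP carrier, 6350 bp near Hes7, an oscillating repressor of somite formation, 6275 bp at Cdkn2b, an inhibitor of cyclin-dependent kinases, and 6150 bp with Dmbx1, a homeobox gene, as nearest gene at 23470 bp. At Slc25a4 H3K27me3 covered 6125, 6500 and 7000 bp in replicates 1, 2 and 3. At Hes7 it covered 5850, 6250 and 5850 bp. Neither region had a base of Suz12 in either library, while the region at Cdkn2b held 725 bp in Suz12 replicate 2 and that at 1200009I06Rik 1275 bp in Suz12 replicate 1. The 3 H3K27me3 libraries differed little at Slc25a4 and Hes7, but at 1200009I06Rik replicate 1 covered 2150 bp against 8150 and 7925 bp.

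Taken library by library, Suz12 regions had a larger median width, lay closer to TSSs and were richer in CpGs than H3K27me3 regions. In these 3 measures the 2 Suz12 and the 3 H3K27me3 libraries did not overlap. Median widths were 550 and 625 bp for Suz12 and 250, 425 and 350 bp for H3K27me3, a difference of 0.81 in mean log2 width or 1.76-fold. The share of regions within 5 kb of a protein-coding TSS was 77.9 and 78.7% for Suz12 (78.3% ± 0.549, SD, n = 2) and 64.8, 72.6 and 72.2% for H3K27me3 (69.9% ± 4.38, SD, n = 3). Median CpG density in the central 300 bp was 6.67 per 100 bp in both Suz12 libraries and 1.00, 1.67 and 1.33 in the H3K27me3 libraries. Each of these 3 differences gave p = 0.2 in a two-sided exact permutation test over libraries (0.2 after Benjamini-Hochberg adjustment over 3 tests), the smallest p that 2 against 3 libraries allow. For mean width the libraries did overlap, with 1248 bp in Suz12 replicate 1 and 1251 bp in H3K27me3 replicate 2. The log2 difference was then 0.58 (p = 0.4, exact permutation test). For median width of regions of at least 200 bp it was 0.34 (p = 0.6, exact permutation test). The width difference reversed to -0.18 on the log2 scale when regions of one list within 1 kb were joined (p = 0.8, exact permutation test), H3K27me3 then being the wider. The labels call the libraries biological replicates of one cell line. In this exact permutation test p = 0.2 is reached whenever the 2 groups of libraries do not overlap, whatever the spread within each.

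Genes were assigned next. Of 22350 protein-coding genes, 3146 had the mark within 5 kb of a TSS (14.1% of all) and 1361 had Suz12 (6.09%). Both were present at 1353 genes, the mark without Suz12 at 1793 (8.02% of all, 57.0% of marked genes), and Suz12 without the mark at 8. Marked genes that shared a window with another protein-coding gene made up 31.4%, and each was counted. Of the 1793, 337 had a region of 1 Suz12 library, 82 had regions of both libraries that did not overlap each other, and 1374 had none. For single pairs of libraries the marked genes without Suz12 made up between 49.4 and 61.0%, the highest values with H3K27me3 replicate 1. Without that replicate the 1793 became 1453.

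Marked genes without Suz12 carried less of the mark. Within 5 kb on either side of the 5′-most TSS, a window of 10001 bp, the median length of H3K27me3 in replicates 1, 2 and 3 was 2092, 3525 and 3250 bp for genes with Suz12 and 800, 850 and 600 bp for genes without. Marked genes with no base of the mark in this window, marked at another TSS only, were left out of the classes that follow. With the mean length of the mark the share of the remaining marked genes with Suz12 rose from 6.44% (36 of 559) between 1 and 500 bp, over 35.9% (272 of 757) between 1000 and 2000 bp and 71.6% (465 of 649) between 2000 and 4000 bp, to 104 of 104 above 8000 bp. CpG density at the TSS did not order the genes in this way. Marked genes were rarer at TSSs with under 1 CpG per 100 bp (2.65% of genes) than at those with 9 or more (21.8%), but among marked genes the share with Suz12 was 41.0% and 44.8%, and between 38.2 and 44.3% in the 3 classes between.

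H3K27ac in both control libraries lay within 5 kb of a TSS at 49.9% of all protein-coding genes. It did so at 21.4% of genes with mark and Suz12, 39.2% of genes with the mark alone and 52.9% of genes with neither. Brg1-FLAG, present at 2.75% of all genes, was found at 3.47%, 5.97% and 2.39% of these groups. By the study's methods it was mapped in cultures of another stem cell line, with a FLAG-tagged Brg1 allele, although the labels name the same line for all samples. The chromatin of all cells of a culture was pooled, so 2 marks at one gene cannot be assigned to the same cells. Around the TSS itself H3K27ac covered 15.0% and 12.7% of bases at genes with the mark alone and 5.13% and 4.15% at genes with mark and Suz12, while the mark was higher 1 kb downstream in both groups. At that position H3K27me3 replicates 2 and 3 covered 36.5% and 28.5% in the former and 76.6% and 71.7% in the latter. In replicate 1 the values were 24.9% and 27.3%, with 2.53% and 6.68% at the TSS.

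Homeobox families were marked with Suz12 almost without exception. All 40 annotated Hox gene IDs had both (Hoxa3 is annotated under 2 IDs), against 14.1% marked among all protein-coding genes and 43.0% of marked genes with Suz12. H3K27me3 at Hox genes ranged over 1925, 6532 and 8301 bp (lowest, median and highest gene) in replicate 1, over 3550, 10001 and 10001 bp in replicate 2, and over 4741, 9726 and 10001 bp in replicate 3. Suz12 ranged over 550, 8272 and 10001 bp in replicate 1 and over 225, 9305 and 10001 bp in replicate 2. The lowest was Hoxb1, an anterior Hox gene chosen here after its values were seen, where H3K27ac covered 1216 and 3066 bp. Of the Dlx, Irx, Lhx and sine oculis homeobox genes, factors of limb, eye and brain patterning, 26 of 28 were marked and all 26 had Suz12. The other two, Six4 and Six5, had no mark in any library and H3K27ac of 4100 and 3950 bp and of 950 and 1050 bp. Of Pax and Nkx genes 22 of 23 were marked and 21 had Suz12.

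The mark and Suz12 also lay together at the homeodomain genes Irx1 and Nkx2-5. H3K27me3 covered 4675, 7405 and 6975 bp at Irx1 in replicates 1, 2 and 3, and Suz12 5230 and 5055 bp. At Nkx2-5, a cardiac factor, the mark covered 5601, 10001 and 10001 bp and Suz12 6550 and 8635 bp. H3K27ac covered 0 bp at both genes in both control libraries.

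Other families of transcription factors were split. Of Fox genes 25 of 43 were marked and 20 of these had Suz12. The 5 marked Fox genes without Suz12 of both libraries (Foxn4, Foxi2, Foxj1, Foxo1 and Foxp4) had little of the mark, at most 1825 bp in any library. At Foxn4 Suz12 replicate 2 covered 100 bp. Of Sox gene IDs 14 of 19 were marked and 11 had Suz12, with Sox17, a factor of endoderm and endothelium, at 5282, 10001 and 10001 bp of the mark. Sox4, without the mark, is annotated under 2 of these IDs. Sox8, Sox30 and Sox13 had the mark without Suz12 of both libraries. Suz12 replicate 1 covered 325 bp at Sox8 and 100 bp at Sox30. Of Tbx and Gata genes 17 of 22 were marked and 15 had Suz12, the exceptions being Eomes and T. Of neural bHLH genes 12 of 15 were marked and 10 had Suz12. Neurog1 and Neurog2, proneural factors, had 10001 and 9301 bp of the mark in replicate 2, and Neurod1, a later neuronal factor, had 2250, 2325 and 1900 bp with no Suz12 in either library.

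Genes of the secreted signals followed the same split. Of Wnt ligands 16 of 19 were marked and 13 had Suz12. Wnt10a had the longest mark, with 5336, 9426 and 8901 bp and Suz12 over 3225 and 3550 bp. Wnt9b, a ligand of kidney development, had 4075, 3600 and 3225 bp of the mark without a base of Suz12. Wnt2 and Wnt5a were also marked without Suz12, and both had H3K27ac (750 and 1550 bp at Wnt2, 2650 and 3525 bp at Wnt5a). Of Bmp, Gdf and Fgf ligands 23 of 43 were marked and 17 had Suz12, led by Gdf7 with 5266, 8641 and 8391 bp of the mark. The exceptions were Gdf11, Gdf10, Bmp1, Fgf8, Fgf14 and Fgf2. Fgf14 and Fgf2 were marked at another TSS only, with 0 bp around the 5′-most TSS in all 3 libraries.

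Genes of the lineage in culture were often listed for H3K27ac and also for the mark. Of 20 primitive streak and mesoderm genes, 17 had H3K27ac in both libraries (85%, against 49.9% of all genes), 12 had the mark (60%, against 14.1%) and 7 had Suz12 (6.09% of all genes). T (Brachyury) and Eomes, T-box factors of the streak, had 2188 and 2563 bp and 5050 and 6875 bp of H3K27ac. H3K27me3 was short there, with 150, 125 and 650 bp at T and 275, 2150 and 2025 bp at Eomes, and Suz12 replicate 2 covered 175 bp at Eomes and 0 bp at T. Fgf8, Cxcr4 and Kdr (a VEGF receptor of early vascular mesoderm) were marked without shared Suz12 as well. Kdr had 2075, 2700 and 3075 bp of the mark and 650 bp of Suz12 in replicate 2. Alone of the 5, Kdr had no H3K27ac of both libraries within 5 kb of a TSS. The study reports H3K27ac enhancers near this gene (named Flk1 there), including an enhancer upstream of this window. Genes of this list with the longest mark were Cdx2, Hand1, Gsc and Lhx1, each with Suz12. Gsc, a factor of the organizer, had 4212, 8187 and 9012 bp of H3K27me3, 5650 and 4875 bp of Suz12 and also 3825 and 5375 bp of H3K27ac.

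Lists of genes of later or other lineages differed from each other. Of 14 cardiac transcription factors 13 were marked and 11 had Suz12, with Hand2 at 7101, 10001 and 10001 bp of H3K27me3 and 7030 and 7476 bp of Suz12. Hey2 and Mef2c had the mark alone. Mef2c was marked at another TSS only, with 0 bp around its 5′-most TSS in all 3 libraries. Cardiac sarcomere genes were marked at a share near that of all genes, unlike the cardiac transcription factors. Tpm1 and Tnni1 were the 2 marked of 17 gene IDs (11.8%, against 14.1% of all genes), neither with Suz12 of both libraries. Tnnc1 is annotated under 2 of these IDs. At Tnni1 the mark covered 659, 0 and 0 bp in replicates 1, 2 and 3. Of 18 blood and endothelial genes 12 were marked and 9 had Suz12. Tal1, a master regulator of blood formation, had 6626, 9526 and 9051 bp of the mark and 4275 and 4850 bp of Suz12, whereas Kit, a receptor of blood progenitors, had 1400, 25 and 0 bp of the mark and no Suz12. Of 16 endoderm genes 9 were marked, each with Suz12, such as Foxa1 with 4901, 10001 and 10001 bp of the mark and 9501 and 10001 bp of Suz12. Of 17 pluripotency genes 12 had H3K27ac (70.6%, against 49.9% of all genes), 7 the mark and 6 Suz12. Prdm14, a germline and naive-state regulator, had 3050, 4925 and 5125 bp of the mark, and Sox2 had 2876, 5801 and 3251 bp beside 3150 and 1850 bp of H3K27ac.

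Polycomb genes themselves mostly carried H3K27ac. All 11 PRC2 genes had H3K27ac in both libraries, against 49.9% of all genes, as did all 75 ribosomal protein genes. Phf19, an accessory subunit, was the only PRC2 gene marked (9.09%, against 14.1% of all genes). It had 850, 1875 and 1975 bp of H3K27me3 and 800 and 275 bp of Suz12. Of 18 PRC1 genes 17 had H3K27ac, 7 the mark and 4 Suz12. Cbx8, a chromodomain protein that binds H3K27me3, had 3133, 8426 and 7526 bp of the mark. Cbx2 had 850, 1375 and 1525 bp of the mark with 25 bp of Suz12 in replicate 1.

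Suz12 was listed at 43.0% of all marked genes, and this share varied between the remaining lists. Of 24 clustered protocadherins, neuronal adhesion proteins, 11 were marked and 1 had Suz12. The 10 without it had no base of Suz12 in either library. Their H3K27me3 reached 2375, 3994 and 3925 bp in replicates 1, 2 and 3 at Pcdhb22 and 2125, 3606 and 3256 bp at Pcdhb21. These genes are tandem copies with similar sequence and how the aligner placed reads that match several of them is not given in the sources used here. Of 82 potassium channel genes 50 were marked and 28 had Suz12, and 17 had no region of either Suz12 library. Kcnk10 had 4451, 6051 and 5951 bp of the mark with 1125 and 1350 bp of Suz12, while Kcnj10 had 2575, 2425 and 2025 bp with none. Of 29 imprinted genes 13 were marked and 10 had Suz12, with Grb10 at 6511, 7326 and 7615 bp of the mark and Igf2r, Magel2 and Ndn as exceptions. Ribosomal protein genes (3 of 75 marked), keratins (1 of 46) and olfactory receptors (0 of 1087, which allows up to 0.276%) were rarely marked and none had Suz12. All counts of lists are read against the 14.1% of genes marked, and the lists share some genes, such as Sox17.

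**Figure D5:**
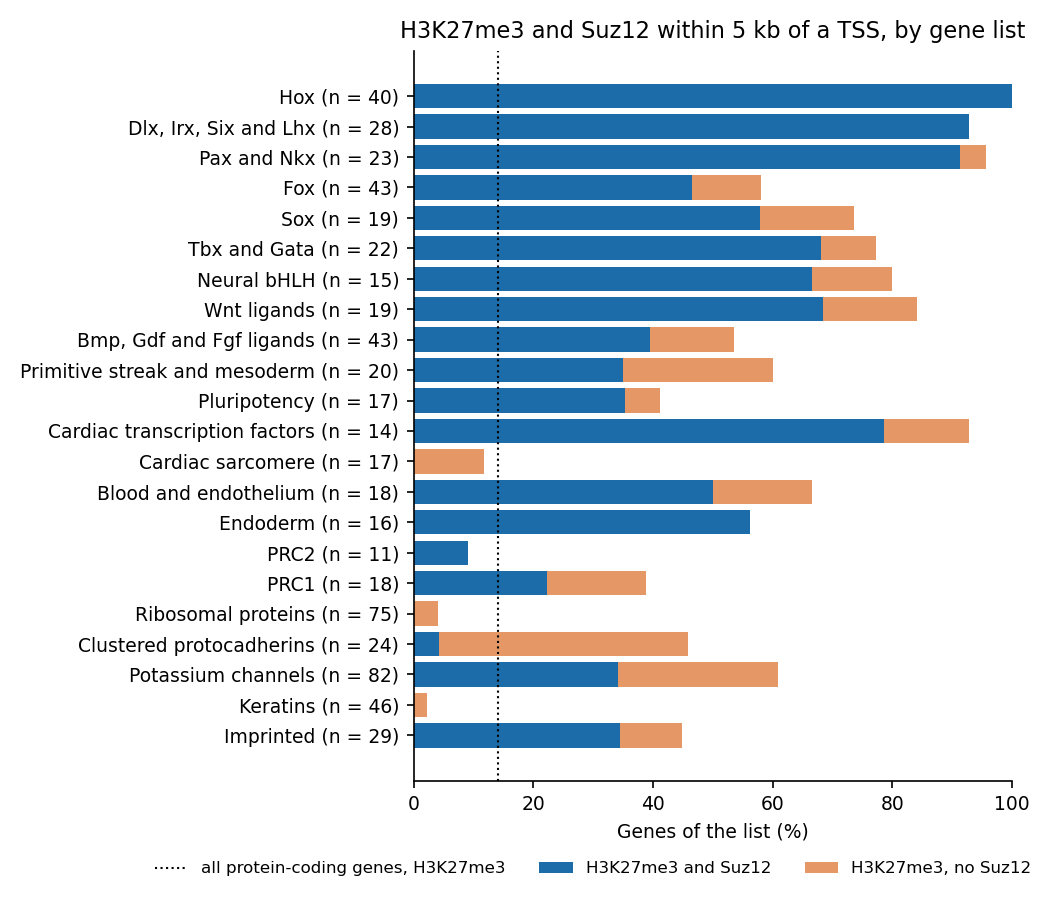
Percentage of genes of each list with H3K27me3 and Suz12 (blue) and with H3K27me3 but no Suz12 (orange) within 5 kb of a TSS; n is the number of annotated genes and the dotted line the 14.1% of all protein-coding genes marked. Hox genes reach 100% with Suz12, while 10 of the 11 marked protocadherins have none.

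The genes with the longest mark and no Suz12 region of either library within 5 kb were Nol3, Ccdc33, Col13a1, Slc8a3, 1200009I06Rik, Ntsr2, Neto2, Unc5d, Zdhhc22 and Cyp46a1. Nol3, a cardiac inhibitor of cell death, led with 4175, 7754 and 8079 bp of H3K27me3 in replicates 1, 2 and 3, and its nearest Suz12 region began 5296 bp from the TSS, just past the window. Cyp46a1, a brain cholesterol hydroxylase, was in the same position, with Suz12 at 6211 bp and 3600, 4539 and 4564 bp of the mark. At the others it was 28097 bp or more away. Col13a1, a transmembrane collagen, had 2650, 5945 and 8795 bp of the mark with Suz12 149619 bp away. Slc8a3, a sodium-calcium exchanger, had 5584, 5325 and 5500 bp with Suz12 572441 bp away, and Unc5d, a netrin receptor of neurons, 3625, 4775 and 4650 bp with Suz12 1870215 bp away. Ntsr2, a neurotensin receptor, had 5250, 4050 and 4275 bp, more in replicate 1 than in the others. All 10 had the mark in all 3 libraries. H3K27ac of both libraries lay at 2 of the 10 (Ccdc33 and Neto2), against 41.4% of the 1374 marked genes without a region of either Suz12 library. The 10 were chosen for the longest mark, and the H3K27ac share of all marked genes fell with its mean length. That share was 43.8% between 1 and 500 bp, 20.2% between 4000 and 6000 bp and 13.4% between 6000 and 8000 bp. The 2 of 10 are therefore not read as a trait of these genes. Around the 5′-most TSS of Ccdc33 H3K27ac covered 146 and 0 bp. CpG density at the TSSs of the 10 lay between 0.667 per 100 bp at Ccdc33 and 16.7 at Neto2.

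Suz12 without the mark near a TSS was found at 8 genes, Cldn7, Ahnak, Coro2b, Ampd3, B430319F04Rik, Rab11fip4, Ptp4a3 and Rai12, which correspond to 6 of the 7 outside regions, since Ampd3 and B430319F04Rik share one and Cldn7 and Rai12 another. At none of the 1361 genes with Suz12 was the mark missing from all 3 libraries. At Coro2b the mark covered 50 bp in replicate 1 and 0 bp in the others, with 175 and 450 bp of Suz12. At Ahnak it covered 100, 400 and 0 bp, with 300 and 500 bp of Suz12 and 1926 and 525 bp of H3K27ac.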

How the data were processed

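ChIP-seq libraries of day 4 control cultures were compared by their lists of enriched regions. Per the labels and the study's methods, the authors aligned reads with Bowtie to mm9 and called regions per replicate over input with an input-corrected Poissonian model at 1e-12. The version, read filters and depth are not given in the sources used here. The lists hold chromosome, start and end without score or count, edges fall on multiples of 25 bp, and no region ran past a chromosome end of the reference.

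Overlapping regions of replicates were merged, and a set region needed 2 of 2 Suz12 or 2 of 3 H3K27me3 libraries. A Suz12 region was inside, across the edge of, beside (gap up to 5 kb) or outside the mark. Genes were 22350 protein-coding genes of GENCODE M1 on mm9, counted when a region lay within 5 kb of any annotated TSS. Lengths per gene refer to the 5′-most TSS. CpG and GC content came from the same genome, in the central 300 bp of regions. Sequences are from that genome too.

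Widths, TSS shares and CpG densities were compared over libraries by two-sided exact permutation tests. All other values are descriptions, as the design compares no conditions. Members, gene lists and tests were chosen with earlier results of these data known. Genes named are those at the 5 widest marked regions with Suz12, the 10 with the longest mark and no Suz12 library, those with Suz12 and no mark, those at the widest regions of either kind alone, Irx1 and Nkx2-5, and from each list up to 4 with the longest mark plus those with the mark and no Suz12. Others, such as Hoxb1, Six4, Six5, Wnt5a, Neurog2 and the single PRC2 subunit, were chosen after their values were seen. For H3K27ac and Brg1-FLAG the sets needed 2 libraries. H3K27me3 and Suz12 lists of 4-OHT cultures were used for the closing observations only, and H3K27ac lists of 4-OHT cultures were not used here. The interval calculations were tested on simulated regions. Scripts ran in Python 3.11.15 with NumPy 2.4.6 and SciPy 1.17.1; figures were drawn with Matplotlib 3.10.9.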

Additional observations from a re-analysis of the deposited data

How the results depend on the processing

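The share of Suz12 regions overlapping the mark, 97.4%, was 88.7% with Suz12 in either library, 91.7% with H3K27me3 in all 3 libraries, 98.5% with H3K27me3 in any, 91.7% over shared bases, 98.4% for regions of at least 200 bp, 98.6% with regions within 1 kb joined and 94.1% when at least 50% of the Suz12 region had to be covered. Leaving out each replicate gave 87.2 to 97.3%. The share of H3K27me3 regions with Suz12, 26.3%, was 32.6%, 36.6%, 10.1%, 19.7%, 31.5% and 34.7% under the first 6 of these settings, and 29.2 to 32.6% with a replicate left out. The 7 Suz12 regions outside the mark were 37, 75 and 0 under the first 3 settings, 11 with a gap over 1 kb, and 10 to 80 with a replicate left out. The 1793 genes with the mark and no Suz12 were 2962 with H3K27me3 in any library, 1326 to 1546 with a replicate left out, and between 1266 and 2160 otherwise, 1689 with the 5′-most TSS only, a setting chosen after seeing the data. The log2 width difference of 0.81 was 0.58 with mean widths and 0.34 with regions of at least 200 bp. It reversed to -0.18 with regions within 1 kb joined, and was 0.60 to 0.99 with a replicate left out. TSS shares (8.40 percentage points higher for Suz12) and CpG densities (5.33 per 100 bp higher) kept their direction under all 9 alternatives each, with ranges of 5.53 to 20.5 and 4.72 to 6.67. The causes were not tested. Suz12 and H3K27me3 share replicate numbers 1 and 2. With these as a replicate block the differences were 0.85 in log2 width, 9.58 percentage points and 5.33 CpGs per 100 bp. Deviations of the same number correlated with r = 0.528 and 0.495 over 17649 merged regions, but Suz12 replicate 2 did so with H3K27me3 replicate 3 as well (r = 0.480), and the numbers were not taken as pairs. With 2 Suz12 libraries the deviation of one is the reverse of the other, so these values are not independent. No list holds read counts, so the depth of each library and its part in these differences are unknown.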

Other observations

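The dip of H3K27me3 at Suz12 centres was also present in replicate 1 of the 4-OHT cultures, in which Brg1 was deleted. Of the 1988 control Suz12 centres, 20.1% lay in a region of H3K27me3 replicate 1 of the control and 15.0% in replicate 1 of the 4-OHT cultures. In replicates 2 and 3 the shares were 92.4% and 87.4% in control cultures and 88.4% and 76.2% in 4-OHT cultures. The mark lay on both sides and not at the centre at 955 and 714 Suz12 regions in the 2 libraries numbered 1, and at 109 to 180 in the 4 others. Both libraries numbered 1 had a median region width of 250 bp, the others 350 to 425 bp. The labels list inputs numbered 1 and 2 for H3K27me3 in each condition, and which input served which library is not given in the sources used here.

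Genes with the mark and no Suz12 in control cultures could carry Suz12 in the lists of 4-OHT cultures. Regions of both 4-OHT Suz12 libraries lay within 5 kb of a TSS at 460 of the 1793 genes (25.7%), at 202 of the 1374 without a region of either control library (14.7%), and at 36 of 19196 genes with neither (0.188%). Of the 10 genes with the longest mark and no control Suz12, 7 were among them. As these genes were chosen for a control Suz12 list at 0, a change with 4-OHT cannot be read from these counts, and conditions were not compared here. At genes with mark and Suz12 in the control, 1320 of 1353 (97.6%) had both 4-OHT libraries too.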
